A study of Mus musculus with 12 samples.

Results

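Adult neural stem/progenitor cells (aNSPCs) from the forebrain of C57BL/6 mice were cultured and their RNA was sequenced with and without nicotinamide adenine dinucleotide (NAD+). The comparison described here is that of NAD+ with control under differentiation conditions, and it takes 6 of the 12 samples of the series, 3 labelled D_Ctrl and 3 labelled D_NAD, called Ctrl and NAD+ below. Both groups received the differentiation treatment, 1 µM retinoic acid with 5 µM forskolin, so neither group lacks these agents, and the NAD+ group differed by NAD+ at 1 mM. The other 6 samples are the same comparison under proliferating conditions and serve only to show where the response differed. The cells came from mice of 8 to 10 weeks. The titles of the samples name NAD+ and the labels' treatment field reads "untreated" for all 12 samples, so the groups follow the titles. The question of the comparison is which genes and pathways differ in expression when differentiating aNSPCs are given NAD+. Levels are FPKM values, fragment counts scaled by gene length and library size. A gene was tested where its FPKM averaged 1 or more across these 6 samples, which held for 12671 of the 55401 genes listed. Of the genes listed, 26110 had an FPKM of 0 in all 6 samples. Ftx and Vstm2b lay just inside the filter with a mean FPKM of 1.00, and Csnk1g1 and A830021F12Rik just outside it with 0.998.

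NAD+ is the electron carrier of glycolysis and the citric acid cycle and the substrate of sirtuins, poly(ADP-ribose) polymerases and NAD+ hydrolases. Added outside the cell, it can be split by ectoenzymes to nicotinamide mononucleotide, ADP-ribose and adenosine. Adult neural stem cells give rise to neurons, astrocytes and oligodendrocytes. Retinoic acid acts through nuclear receptors, and forskolin activates adenylyl cyclases and so raises cAMP.

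The FPKM of all genes summed to between 324252 and 330244 in the Ctrl samples and between 331362 and 349649 in the NAD+ samples. The number of reads behind the FPKM values is not given, so the counting error of a value is unknown. On the scale of log2(FPKM + 0.1), samples of the same group correlated across the tested genes with r of 0.965 to 0.969 and samples of different groups with r of 0.951 to 0.958. The first principal component held 35.7% of the variance and separated the groups. The sources call the samples biological repeats and say no more of their origin, so p-values measure the spread between these samples. With 3 samples against 3, an exact permutation test of a single gene cannot go below p = 0.1, and the p-values given are those of limma, adjusted by Benjamini-Hochberg over the 12671 genes. A gene is called higher or lower where the adjusted p is under 0.05. A log2 fold change is the difference of log2(FPKM + 0.1), NAD+ minus Ctrl, given with its standard error, and it understates the change of genes of low FPKM. Levels with ± are mean ± SD (n = 3). Single values in parentheses after a gene are log2 fold changes. The fit of NAD+ against Ctrl was repeated without each of the 6 samples in turn. Where a call was lost in any of these fits, the highest adjusted p is given with the sample left out. That sample is the worst case, and a call may have been lost without other samples too. For example, Tgfbr3, Aldh1a1, Parp1, Rfc3 and Sufu were called in none of the 6 fits. Fgf2, Txnip, Ccl2, Relb and Irs2 were each called in 1 of the 6.

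NAD+ changed 1589 genes, of which 514 rose and 1075 fell. The background of the counts below is therefore 4.06% of tested genes called higher and 8.48% called lower. Scaling of each sample by the median ratio to the geometric mean sample moved the log2 fold changes by 0.07 and the split to 722 higher (5.7%) and 673 lower (5.31%). All 514 rises were called in the same direction under both scalings, as were 673 of the falls. Each rise below therefore stands under both of these scalings, and each fall given by name that does not is marked. Median-ratio scaling moved the log2 fold changes up, so it is a weak check of the rises. Division by the FPKM sum moved them down, to a median of -0.13, and gave 354 higher and 1464 lower. Under that division 11 of the 218 named calls were lost, and these are not marked. Counts of falls are those on the deposited values unless stated. All 3 NAD+ samples lay above all 3 Ctrl samples in 11.7% of tested genes and below them in 25.6%. Changes were mostly under 2-fold: 52 of the 514 rises and 88 of the 1075 falls passed a log2 fold change of 1. The median log2 fold change over all tested genes was -0.08, and 4667 of the 12671 were positive, the background for counts by sign below. When 1 sample was left out, 208 to 305 of the 514 rises and 351 to 650 of the 1075 falls stayed called, with the fewest in both directions without Ctrl replicate 1.

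The largest rises among well-expressed genes, with a mean FPKM of 10 or more, included genes of secreted and surface proteins of innate immunity. Lcn2 (chr2:32384633-32388252), which encodes lipocalin 2, a siderophore-binding protein secreted in inflammation, had FPKM values of 27.6, 21.6 and 25.7 in Ctrl and 176, 173 and 178 in NAD+. The groups were far apart, with a log2 fold change of 2.82 ± 0.09 (adjusted p = 1.84e-04). C3 (chr17:57203970-57228136), the central complement component, stood at 90.9, 81 and 83.7 in Ctrl and 436, 429 and 425 in NAD+, with a log2 fold change of 2.34 ± 0.05 (adjusted p = 4.57e-05). Every NAD+ sample lay well above every Ctrl sample for C3. Steap4, a metalloreductase of iron and copper, rose from 6.49 ± 1.16 to 34.1 ± 3.42 FPKM (SD, n = 3), a 5.25-fold difference. Cxcl10 (chr5:92346638-92348889), a chemokine that draws T cells, stood at 12.6, 10.8 and 12.2 in Ctrl and 43.1, 40.3 and 41.7 in NAD+. Its spread within groups was small beside the log2 fold change of 1.8 ± 0.07 (adjusted p = 4.59e-04).

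Other rises in the same set were those of S1pr3, a receptor for sphingosine 1-phosphate, of Junb, an AP-1 transcription factor, and of Icosl, the ligand of the T cell costimulator ICOS. S1pr3 stood at 8.82, 7.81 and 10.2 in Ctrl and 28.4, 27.1 and 30.3 in NAD+. Junb stood at 10.7, 11.1 and 11 in Ctrl and 34, 29.4 and 32.6 in NAD+. Icosl stood at 7.81, 9.24 and 8.23 in Ctrl and 19.3, 25.2 and 27.8 in NAD+. None of these 3 genes overlapped between the groups, and their log2 fold changes were 1.68 ± 0.10, 1.54 ± 0.07 and 1.49 ± 0.14. Ecrg4, which encodes a secreted peptide precursor, rose from 8.39 ± 1.08 to 23 ± 1.09 FPKM, Prelp, a small leucine-rich proteoglycan, rose from 6.13 ± 0.697 to 15.9 ± 0.998, and Gadd45a, a stress-induced growth arrest gene, rose from 5.63 ± 0.552 to 14.5 ± 3.33 (SD, n = 3). The guanylate-binding protein gene Gbp2 is taken up with the interferon-induced genes. The last of the 12, Gm27505, is a short non-coding RNA that lies within Neat1 on the same strand, so their reads cannot be told apart. Neat1, the scaffold RNA of paraspeckles, itself rose from 3.97 ± 0.4 to 15.1 ± 2.29 FPKM, with a log2 fold change of 1.89 ± 0.13.

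The 12 largest falls among well-expressed genes, of which 11 are given, held oligodendrocyte, lipid and ion transport genes. Enpp6, a choline phosphodiesterase of newly forming oligodendrocytes, had FPKM values of 19.1, 26.7 and 20.1 in Ctrl and 7.37, 10.6 and 6.48 in NAD+. S100a16, a calcium-binding protein, stood at 50.6, 57.1 and 51.1 in Ctrl and 15.8, 23.7 and 20.5 in NAD+. Both were lower in every NAD+ sample than in every Ctrl sample, with log2 fold changes of -1.43 ± 0.21 and -1.42 ± 0.15. Gpcpd1, which hydrolyses glycerophosphocholine, fell from 26.4 ± 1.57 to 10.1 ± 2.64 FPKM, and Fabp5, a fatty acid-binding protein, fell from 104 ± 4.56 to 48.1 ± 4.89. Kcnj10, the inward rectifier potassium channel Kir4.1 of glia, stood at 52.3, 49.3 and 60.9 in Ctrl and 26, 23.4 and 24.8 in NAD+, and every NAD+ sample lay below every Ctrl sample. The others were Septin5 (-1.17), Cfap100 (-1.16), Nkain4 (-1.11), Susd4 (-1.1), Idi1 (-1.06) and Ppp1r1a (-1.06), given with their log2 fold changes. All 24 genes, rises and falls, stayed called when any 1 of the 6 samples was left out.

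**Figure D1:**
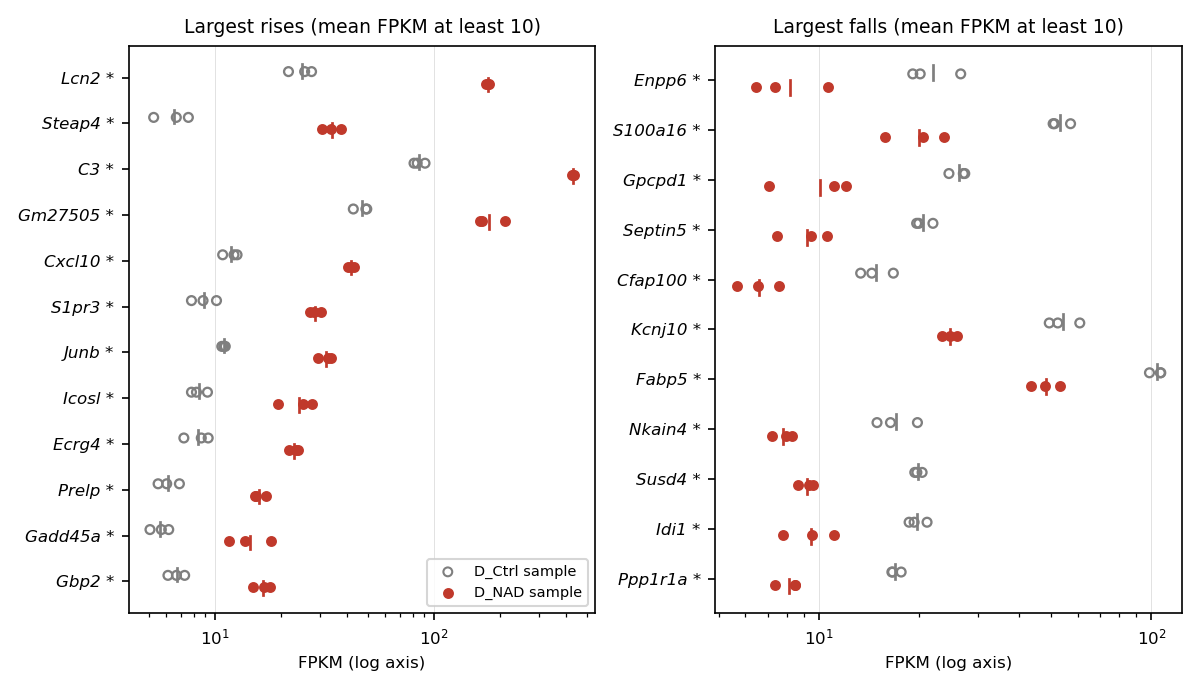
FPKM of the 12 largest rises (left) and 11 of the 12 largest falls (right) among well-expressed genes (mean FPKM 10 or more), on log axes, in the 3 D_Ctrl samples (open circles) and the 3 D_NAD samples (filled circles), with the group means as vertical ticks and an asterisk for an adjusted p under 0.05. The groups overlap for none of the 23 genes drawn, and Lcn2 shows the widest gap, 21.6 to 27.6 in Ctrl against 173 to 178 in NAD+.

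**Figure D2:**
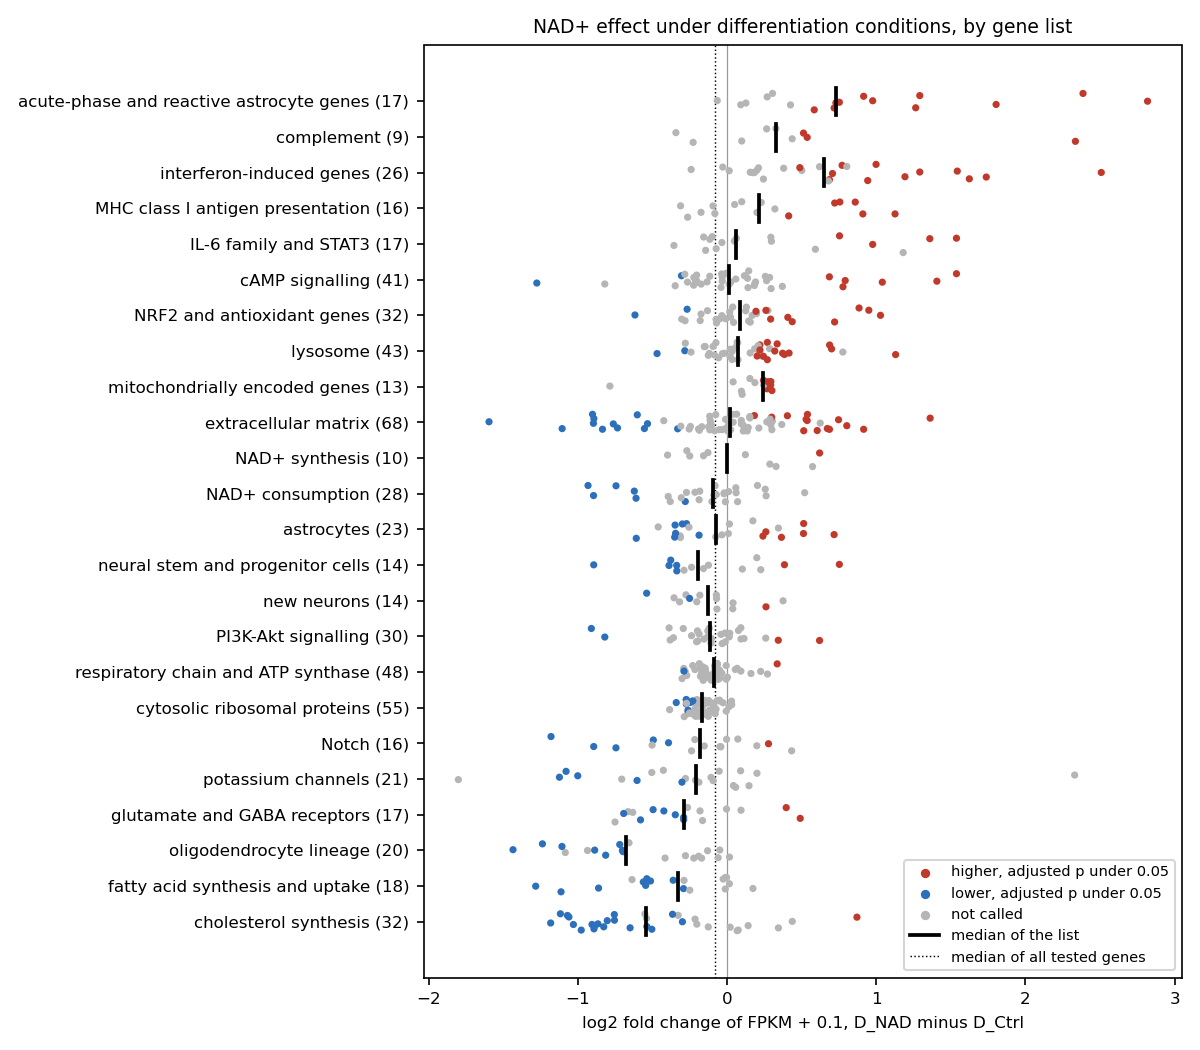
Log2 fold change of FPKM + 0.1, D_NAD minus D_Ctrl (horizontal axis), of every tested member of 24 gene lists (number of tested members in brackets), with members called higher, called lower and not called in separate colours, the list median as a thick tick and the median of all tested genes (-0.08) as a dotted line. Acute-phase and reactive astrocyte genes (median 0.73) and interferon-induced genes (0.65) lie to the right, and cholesterol synthesis (-0.55) and the oligodendrocyte lineage (-0.68) to the left.

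Of 17 tested acute-phase genes and genes that astrocytes express when they become reactive, 11 rose, none fell and 16 had a positive log2 fold change, with a median of 0.73 (0.80 after median-ratio scaling). Beside Lcn2 and Steap4, ceruloplasmin, the copper-carrying ferroxidase encoded by Cp, had FPKM values of 13.8, 11.2 and 14.5 in Ctrl and 31.6, 28.8 and 34.3 in NAD+, a log2 fold change of 1.26 ± 0.11. The protease inhibitor Timp1 rose from 4.56 ± 0.395 to 8.72 ± 1.09 FPKM and the oncostatin M receptor Osmr from 2.57 ± 0.187 to 5.16 ± 0.463 (SD, n = 3). Gfap, the intermediate filament protein of astrocytes, stood at 598, 546 and 642 in Ctrl and 999, 965 and 967 in NAD+, and Vim, which encodes vimentin, at 172, 125 and 136 in Ctrl and 228, 243 and 252 in NAD+. Neither gene overlapped between the groups. A2m (0.73, adjusted p = 0.0374), which encodes the protease inhibitor alpha-2-macroglobulin, was called, with adjusted p = 0.117 without Ctrl replicate 1, and Vim had adjusted p = 0.0521 without NAD+ replicate 3. Serpina3n, a protease inhibitor of the same set, was at 163 (Ctrl mean) and 202 (NAD+ mean) FPKM and missed the threshold on the deposited values (adjusted p = 0.054). After median-ratio scaling 12 of the 17 genes were called higher instead of 11. Of the 11 calls, 8 held in all 6 fits that left out 1 sample.

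Of the 9 tested genes of the complement list, 3 rose and none fell. Apart from C3 these were Clu, which encodes the complement inhibitor clusterin and rose from 74.1 ± 5.28 to 106 ± 8.61 FPKM, and Cfp, which encodes properdin (0.54, adjusted p = 0.025) and had adjusted p = 0.085 without Ctrl replicate 1. C4b, the complement component upstream of C3, stood at 55.2, 44.8 and 55.5 in Ctrl and 55.4, 49.7 and 61.2 in NAD+, and its groups overlapped. C1qa was at 0, 0.05 and 0.18 FPKM in Ctrl and 0, 0 and 0.14 in NAD+ and lay under the filter. The list does not hold every gene linked to complement, and Susd4, which fell (-1.1), is outside it.

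In the interleukin-6 family and STAT3 list, 4 of 17 genes rose and none fell, all 4 in every fit that left out 1 sample. Il6st, the shared receptor subunit gp130, stood at 40.9, 43.7 and 42.8 in Ctrl and 65.5, 73.7 and 76.2 in NAD+, Il6ra, the interleukin-6 receptor, at 1.15, 1.16 and 1.24 in Ctrl and 2.33, 3.35 and 4.15 in NAD+, and Osmr and Junb were the others. Every NAD+ sample was above every Ctrl sample in all 4. Jak1, the kinase bound to gp130, was at 26 (Ctrl mean) and 26.9 (NAD+ mean) FPKM with a log2 fold change of 0.05 (adjusted p = 0.544). Among the CCAAT/enhancer-binding protein genes, Cebpd rose from 7.95 ± 0.512 to 13.9 ± 0.516 FPKM (log2 fold change 0.80 ± 0.07). Its relatives Cebpb (0.41, adjusted p = 0.268), Ddit3 (0.06, adjusted p = 0.597), Cebpg (-0.02, adjusted p = 0.91) and Cebpz (-0.14, adjusted p = 0.168) did not pass the test.

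Interferons induce guanylate-binding proteins, immunity-related GTPases and other effectors against intracellular pathogens. Of 26 tested interferon-induced genes, 12 rose and none fell, with a median log2 fold change of 0.65, and 24 of the 26 were positive. Of the 8 guanylate-binding proteins and GTPases, 6 were called, with a median of 1.1. Gbp2 had FPKM values of 6.1, 6.67 and 7.27 in Ctrl and 16.8, 17.9 and 14.8 in NAD+, Gbp6 of 1.63, 1.77 and 1.79 in Ctrl and 5.53, 5.62 and 5.46 in NAD+ and Gbp3 of 1.32, 1.21 and 1.29 in Ctrl and 3.09, 3.17 and 2.86 in NAD+. In each the lowest NAD+ sample was at least 2-fold above the highest Ctrl sample. Gbp10 was at 0.72, 2.29 and 0.64 in Ctrl and 5.89, 6.73 and 6.43 in NAD+, with adjusted p = 0.0635 without Ctrl replicate 1. The Gbp genes are close relatives, and only uniquely aligned reads were kept by the authors, so their separate levels are uncertain.

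Of the other 10 effectors, 5 rose, 3 of them also without Ctrl replicate 1. Bst2, the tetherin that holds budding virus particles, stood at 1.55, 2.08 and 1.84 in Ctrl and 5.4, 7.17 and 4.22 in NAD+. Ifi27 rose from 28.1 ± 3.24 to 54.2 ± 6.9 FPKM and Ifitm3, which blocks virus entry at endosomes, rose from 51.7 ± 5.05 to 84.2 ± 4.04 (SD, n = 3). Lgals3bp rose from 2.91 ± 0.826 to 9.99 ± 2.72, with adjusted p = 0.0512 without Ctrl replicate 1, and Ifit3 rose from 8.33 ± 0.22 to 14.5 ± 2.93, with adjusted p = 0.0755 without Ctrl replicate 2. Ifit2 was at 4.65 (Ctrl mean) and 4.69 (NAD+ mean) and Isg15 at 1.08, 0.7 and 0.45 in Ctrl and 2.3, 1.22 and 0.77 in NAD+, and both overlapped between the groups. Ifit1 and Oasl2 lay under the filter, at 0.11, 0.21 and 0.09 and 0.16, 0.19 and 0.21 FPKM in Ctrl and 1.61, 1.47 and 0.43 and 1.19, 1.24 and 0.39 in NAD+.

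Of the 8 signalling genes of the interferon response, 1 was called on the deposited values, the receptor subunit Ifngr2 (0.49, adjusted p = 0.0182), which had adjusted p = 0.0702 without Ctrl replicate 1. After median-ratio scaling 3 of the 8 were called, among them Irf9 (adjusted p = 0.0662 as deposited and 0.0375 after this scaling). Irf7 was at 0.14, 0.15 and 0.18 FPKM in Ctrl and 0.39, 0.35 and 0.25 in NAD+.

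The promoters of these genes are shown because a recognition element for interferon-activated factors is well known. The core of the interferon-stimulated response element, searched on both strands in the 250 bases before the annotated start (RefSeq, GRCm38.p6), was present in 10 of the 21 tested interferon-induced genes with a promoter in the table and in 5 of the 8 of these that were called. It was present in 3.46% of the promoters of all 27025 genes. The motif was chosen after the expression values were known. These genes were listed as interferon-induced, so a share above that of all promoters does not bear on NAD+. Members that were not called, such as Isg15, held it too. Ifit3 was the other called gene with a match, and its stretch is not shown. In the stretches below the capitals mark the matched letters, which for Gbp2 and Gbp3 lie on the other strand and for Gbp3, Irgm1 and Bst2 are overlapping matches.
Gbp2 (chr3:142620579-142620638, plus strand): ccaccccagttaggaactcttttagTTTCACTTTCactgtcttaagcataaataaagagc
Gbp3 (chr3:142559980-142560039, plus strand): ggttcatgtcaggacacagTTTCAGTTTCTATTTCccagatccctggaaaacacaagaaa
Irgm1 (chr11:48871421-48871480, minus strand): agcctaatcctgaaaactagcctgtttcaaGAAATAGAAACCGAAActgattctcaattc
Bst2 (chr8:71537562-71537621, minus strand): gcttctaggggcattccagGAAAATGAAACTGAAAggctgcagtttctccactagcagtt
A match is a description of the letters, and binding was not measured. Cxcl10, with its element for NF-kB, was 1 of 3 such genes among 13 reactive genes with a promoter in the table, against 4.46% of all promoters.
Cxcl10 (chr5:92348958-92349017, minus strand): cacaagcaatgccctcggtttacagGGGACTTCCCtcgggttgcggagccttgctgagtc
The capitals in Cxcl10 mark the NF-kB match.

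All 5 tested heavy chains of major histocompatibility complex (MHC) class I, which present peptides to CD8 T cells, rose, with a median log2 fold change of 0.86. H2-D1 had FPKM values of 46.2, 44.7 and 47 in Ctrl and 107, 100.1 and 94.7 in NAD+, and H2-Q4 of 10.7, 9.32 and 11.9 in Ctrl and 21, 18.6 and 20.5 in NAD+. Their log2 fold changes were 1.13 ± 0.06 and 0.91 ± 0.10. H2-K1 rose from 18.6 ± 1.67 to 31 ± 5.38 FPKM, with adjusted p = 0.0727 without Ctrl replicate 1, and H2-T23 rose from 3.79 ± 0.246 to 7.02 ± 1.23, with adjusted p = 0.0509 without Ctrl replicate 1. H2-T22 was called at adjusted p = 0.0495 and had 0.129 without Ctrl replicate 2. Without Ctrl replicate 1, 2 of the 5 heavy chains stayed called, and without Ctrl replicate 3, 3 did. B2m, the light chain, stood at 126, 133 and 149 in Ctrl and 213, 239 and 235 in NAD+ and did not overlap between the groups. The heavy chain genes share much of their sequence, with the same uncertainty as for the Gbp genes. Of 11 genes of assembly and peptide supply, B2m alone was called. The peptide transporter genes Tap1 and Tap2 had log2 fold changes of 0.10 and 0.32, and the endoplasmic reticulum chaperone Calr was at 247 (Ctrl mean) and 219 (NAD+ mean) FPKM (adjusted p = 0.117). The immunoproteasome gene Psmb8 was at 0.64, 0.42 and 0.59 FPKM in Ctrl and 0.7, 0.87 and 0.72 in NAD+, under the filter.

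**Figure D3:**
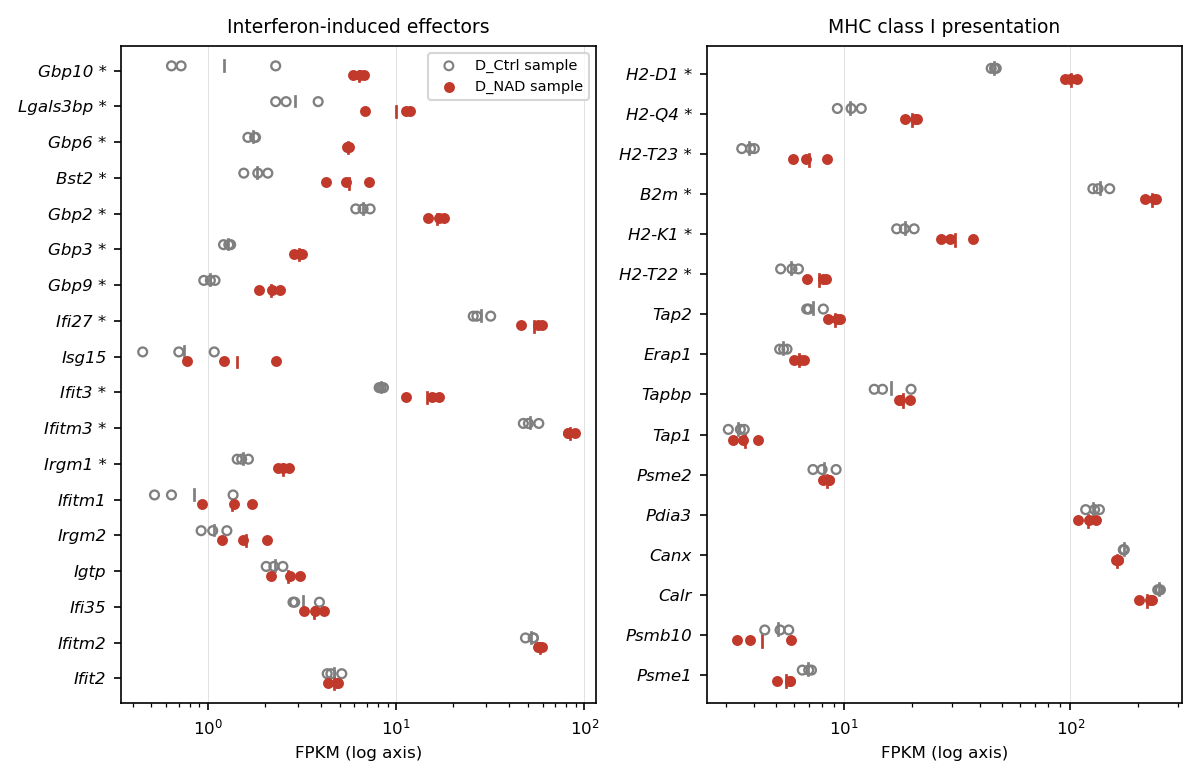
FPKM on log axes of the tested interferon-induced effectors (left) and the tested genes of MHC class I presentation (right), ordered by log2 fold change, in the 3 D_Ctrl samples (open circles) and the 3 D_NAD samples (filled circles), with group means as vertical ticks and an asterisk for an adjusted p under 0.05. The guanylate-binding proteins and all 5 heavy chains sit higher in the NAD+ samples, while Ifit2, Psme2 and Pdia3 overlap.

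Chemokine ligand genes were mostly silent, and 6 of 23 passed the filter. Cxcl14 rose from 1.15 ± 0.0252 to 2.1 ± 0.166 FPKM beside Cxcl10, Ccl2 was at 0.24, 0.4 and 0.9 in Ctrl and 2.42, 1.93 and 2.3 in NAD+, with adjusted p = 0.0779 without NAD+ replicate 3, and Ccl28 fell with a log2 fold change of -0.55 and adjusted p = 0.101 without Ctrl replicate 1. In the list of Toll-like receptors and NF-kB, 2 of 22 genes rose and 2 fell. Tlr2, a receptor for bacterial lipoproteins, stood at 3.06, 3.06 and 2.81 in Ctrl and 8.77, 10.1 and 9.17 in NAD+, and Tlr5, the flagellin receptor, at 1.74, 1.86 and 1.54 in Ctrl and 0.55, 0.65 and 0.42 in NAD+. The former was higher and the latter lower in every NAD+ sample. Relb (0.44, adjusted p = 0.0347) and Nfkbib (-0.56, adjusted p = 0.0222), an NF-kB subunit and an inhibitor, reached adjusted p = 0.111 without Ctrl replicate 1 and 0.0803 without Ctrl replicate 1. The median of the list was -0.03.

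Of the 20 enzymes of cholesterol synthesis, all tested, 15 fell, none rose, and all 20 had a negative log2 fold change with a median of -0.76 (-0.68 after median-ratio scaling, which also called 15 lower). In 18 of the 20 every NAD+ sample lay below every Ctrl sample. Hmgcs1 (chr13:119690379-119708260), which makes the precursor of mevalonate, had FPKM values of 139.8, 128 and 132 in Ctrl and 83.4, 78.3 and 64.7 in NAD+, with a log2 fold change of -0.83 ± 0.10. Of the later steps, Mvd stood at 22.9, 21.3 and 21.7 in Ctrl and 13, 12.3 and 8.53 in NAD+, and the isoprenoid enzymes Idi1 at 21.1, 18.7 and 19.3 in Ctrl and 11.1, 9.54 and 7.81 in NAD+ and Fdps at 9.56, 8.86 and 10.2 in Ctrl and 4.89, 4.71 and 3.52 in NAD+. Lss, which closes the sterol ring, fell from 8.19 ± 0.161 to 3.96 ± 0.23 FPKM (SD, n = 3), and Sqle, which oxidises squalene before it, fell from 31.9 ± 1.08 to 20.4 ± 2.25. The 5 that were not called were Dhcr7 (-0.55, adjusted p = 0.0515), Ebp (-0.33, adjusted p = 0.0502), Acat2 (-0.54, adjusted p = 0.129), Tm7sf2 (-0.21, adjusted p = 0.393) and Msmo1 (-0.20, adjusted p = 0.636). Of the 15 calls, 9 held in all 6 fits that left out 1 sample, the same number as without Ctrl replicate 1 alone, and Mvd had adjusted p = 0.0578 without Ctrl replicate 1.

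Of 12 tested genes of sterol regulation, uptake and export, 4 fell and 1 rose, and 2 of the 4 falls stayed called without Ctrl replicate 1 or 3. Insig1, which retains the sterol sensor in the endoplasmic reticulum and is itself a target of the sterol-regulated factor SREBP2, stood at 39.6, 35.7 and 38.4 in Ctrl and 21.9, 19.5 and 19.7 in NAD+. Stard4, a sterol carrier, fell from 7.48 ± 0.429 to 3.29 ± 0.691 FPKM. Srebf2, which encodes SREBP2, was called lower on the deposited values (-0.30, adjusted p = 0.0292) and not after median-ratio scaling, with adjusted p = 0.101 without Ctrl replicate 1. Abca1, the pump that exports cholesterol to apolipoproteins, stood at 51.5, 57.9 and 55.9 in Ctrl and 91.5, 103 and 108 in NAD+, with every NAD+ sample above every Ctrl sample and a log2 fold change of 0.87 ± 0.08. Apoe, the main apolipoprotein of astrocytes, was at 5547, 4920.3 and 6644 in Ctrl and 6688, 7261 and 7639 in NAD+ and missed the threshold (adjusted p = 0.103).

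Of the 15 enzymes with a promoter in the table, 1, Hmgcs1, held the sterol regulatory element spelled TCACNCCAC within the 250 bases before the start, against 1.22% of all promoters. Its match is in capitals, and no match elsewhere says only that these letters are not in this window.
Hmgcs1 (chr13:119690189-119690248, plus strand): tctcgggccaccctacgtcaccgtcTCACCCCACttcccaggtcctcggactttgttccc

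Of 18 tested genes of fatty acid synthesis and uptake, 9 were lower and none higher, with 7 of these 9 called after median-ratio scaling and 5 without Ctrl replicate 1 or 3. Cd36, a fatty acid transporter of the membrane, had FPKM values of 6.31, 7.4 and 8.96 in Ctrl and 2.96, 2.63 and 3.52 in NAD+, and the elongase Elovl6 stood at 12.1, 12 and 12.3 in Ctrl and 8.03, 8.43 and 8.1 in NAD+. Acss2, which makes acetyl-CoA from acetate, fell from 8.86 ± 0.904 to 4.82 ± 0.337 FPKM, and Acly, which makes it from citrate, fell from 33 ± 0.932 to 23.1 ± 1.02 (SD, n = 3). Fasn, the fatty acid synthase, had a log2 fold change of -0.55 ± 0.10, with adjusted p = 0.0769 without Ctrl replicate 1. The desaturase genes differed: Fads1 fell (-0.36, adjusted p = 0.0595 without Ctrl replicate 1), Fads2 was at 676 (Ctrl mean) and 664 (NAD+ mean) FPKM, and Scd2 was at 527, 2106 and 511 in Ctrl and 533, 552 and 513 in NAD+, where Ctrl replicate 2 stood apart from the other 5 samples and the groups overlapped. The transcription factor gene Srebf1 was at 53.2 (Ctrl mean) and 45.1 (NAD+ mean) (adjusted p = 0.187).

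**Figure D4:**
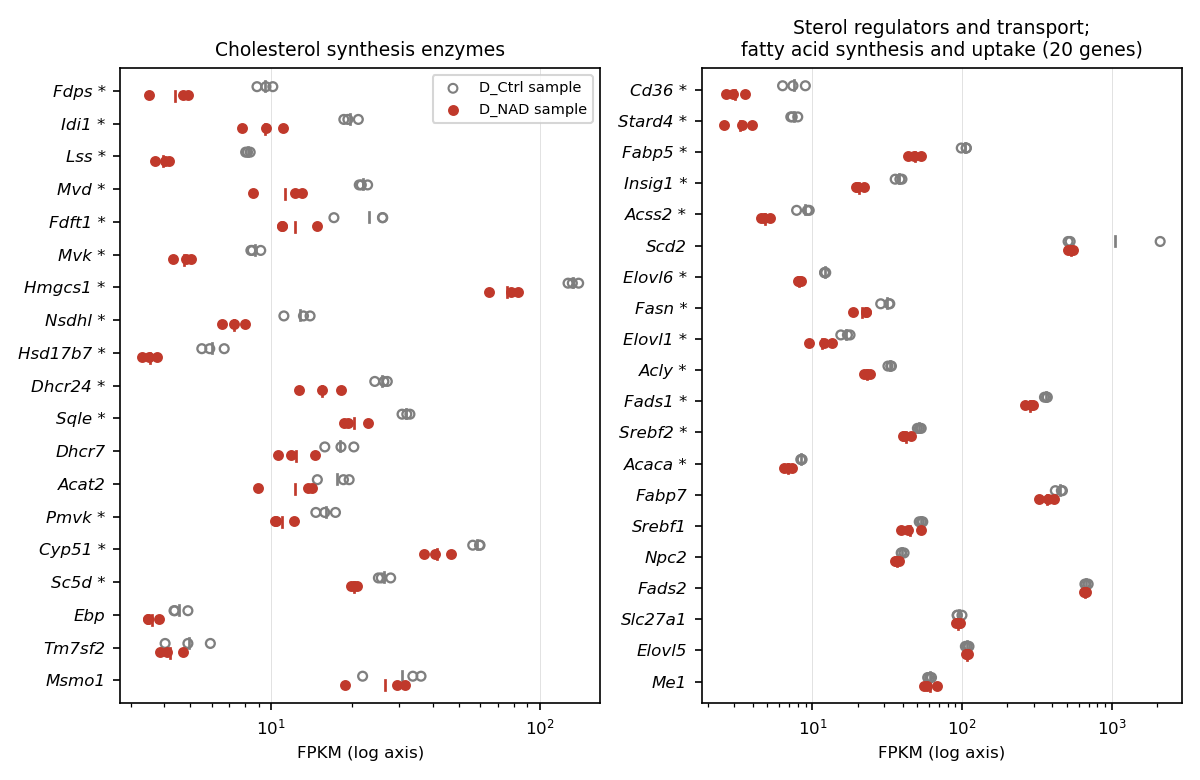
FPKM on log axes of 19 of the 20 enzymes of cholesterol synthesis (left) and of 20 sterol regulator, transport and fatty acid genes, from the low end of log2 fold change (right), in the 3 D_Ctrl samples (open circles) and the 3 D_NAD samples (filled circles), with group means as vertical ticks and an asterisk for an adjusted p under 0.05. The enzymes lie lower in the NAD+ samples, from Fdps (9.52 to 4.37) to Msmo1 (30.6 to 26.6), and 1 Ctrl sample of Scd2 lies apart at 2106.

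Of 20 tested genes of the oligodendrocyte lineage, 8 fell and none rose, and the summed FPKM of the lineage was 1222 to 1344 in the Ctrl samples and 845 to 927 in the NAD+ samples. In these bulk samples fewer cells of a type and less RNA per cell cannot be told apart. Of the 11 genes of late stages, 6 were called and all 11 were negative, with a median of -0.81. Beside Enpp6, Myrf, the factor that switches on myelin genes, had FPKM values of 7.44, 9.43 and 7.59 in Ctrl and 3.54, 4.52 and 3.19 in NAD+, and Cnp, a myelin phosphodiesterase, of 109.6, 130.4 and 113 in Ctrl and 66.9, 81.7 and 69.2 in NAD+. Neither overlapped. Mag (-0.70, adjusted p = 0.0449) was called on the deposited values only, with adjusted p = 0.121 without NAD+ replicate 3, and Ugt8a, an enzyme of myelin galactolipids (-0.81, adjusted p = 0.0193), had adjusted p = 0.0648 without Ctrl replicate 3. Mbp, which encodes myelin basic protein, was at 4.89, 6.86 and 4.37 in Ctrl and 1.85, 4.59 and 1.68 in NAD+, so its groups overlapped, and Mog was at 0.09, 0.03 and 0.06 in Ctrl and 0.04, 0.11 and 0.22 in NAD+. Of the 9 early genes, Gpr17, a receptor of committed precursors, stood at 329, 386 and 353 in Ctrl and 185, 214 and 179 in NAD+, and Nkx2-2 fell from 15.7 ± 0.841 to 9.5 ± 1.12 FPKM. The precursor genes Pdgfra and Cspg4 had log2 fold changes of -0.17 and -0.06, and the lineage factor Olig2 of -0.22 (adjusted p = 0.0684).

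Astrocyte markers split, with 6 of 23 higher and 7 lower, 2 of the falls after median-ratio scaling. Between 1 (without Ctrl replicate 1) and 4 (without NAD+ replicate 2) of the 7 falls stayed called when 1 sample was left out. The rises were Gfap, Clu, Mlc1 (from 425 ± 13 to 607 ± 20.9 FPKM), the glutamate transporters Slc1a3 (from 329.6 ± 8.97 to 424 ± 7.11) and Slc1a2 (from 53 ± 1.73 to 63.5 ± 2.82), and the sodium pump subunit Atp1b2 (from 493 ± 1.14 to 582 ± 20.2). Slc1a2 had adjusted p = 0.0986 without Ctrl replicate 1 and Atp1b2 had 0.0769 without Ctrl replicate 1. Aldh1l1, a folate enzyme used to mark astrocytes, had FPKM values of 93, 96.6 and 91 in Ctrl and 63.3, 63.1 and 57.7 in NAD+, all lower with NAD+. The fall of F3 (-0.30, adjusted p = 0.0147) was the other that held under both scalings, with adjusted p = 0.0605 without Ctrl replicate 1. The water channel gene Aqp4 (-0.31, adjusted p = 0.0559) and Gja1, which encodes connexin 43 and stood at 126, 258 and 138 in Ctrl and 189, 104 and 88.3 in NAD+, did not pass the test. The summed FPKM of the 24 markers was 9571 to 11241 in the Ctrl samples and 11664 to 12644 in the NAD+ samples, and Apoe was the most abundant of them.

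Of 14 tested stem cell markers, 2 rose and 5 fell, 4 of the falls under both scalings. Between 1 (without Ctrl replicate 1) and 3 (without Ctrl replicate 2) of the 5 falls stayed called when 1 sample was left out. Their summed FPKM was 868 to 955 in Ctrl and 869 to 950 in NAD+. Sox2 was at 145, 152 and 143 in Ctrl and 142, 134 and 129 in NAD+ (adjusted p = 0.172). Hes5, a Notch target, stood at 16.4, 15.6 and 16.5 in Ctrl and 9.83, 9.41 and 7.02 in NAD+, and Msi1 had a log2 fold change of -0.38, with adjusted p = 0.0543 without Ctrl replicate 1. Sox9 rose from 38.1 ± 0.949 to 49.8 ± 2.55 FPKM. Among markers of new neurons, 22 of 38 were below 1 FPKM in all 6 samples, among them Neurog2, Neurod1 and Rbfox3, and the sums were 267 to 277 in Ctrl and 251 to 256 in NAD+. Dcx, a microtubule protein of migrating neurons, was at 3.96, 3.82 and 4.39 in Ctrl and 3.61, 3.9 and 4.08 in NAD+, and Tubb3 at 14.2, 9.76 and 11.8 in Ctrl and 10.3, 9.85 and 9.01 in NAD+, and both overlapped. Gap43, a growth cone protein that glial precursors also express, fell from 9.5 ± 0.472 to 6.5 ± 0.282 FPKM.

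Markers of other cell types were low. Of 12 microglial genes, 10 were below 1 FPKM in all 6 samples, among them Aif1, P2ry12 and Cx3cr1, and the summed level was 27.5 to 30.4 in Ctrl and 32.0 to 34.8 in NAD+. Cd68, a lysosomal gene that macrophages express, rose from 1.59 ± 0.298 to 3.57 ± 0.311. All 9 endothelial genes and all 11 pericyte and fibroblast genes were below 1, and ependymal and choroid plexus genes summed to 32.5 to 37.7 and 29.6 to 35.1. The part of these cells in the immune genes above was not tested beyond these levels.

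**Figure D5:**
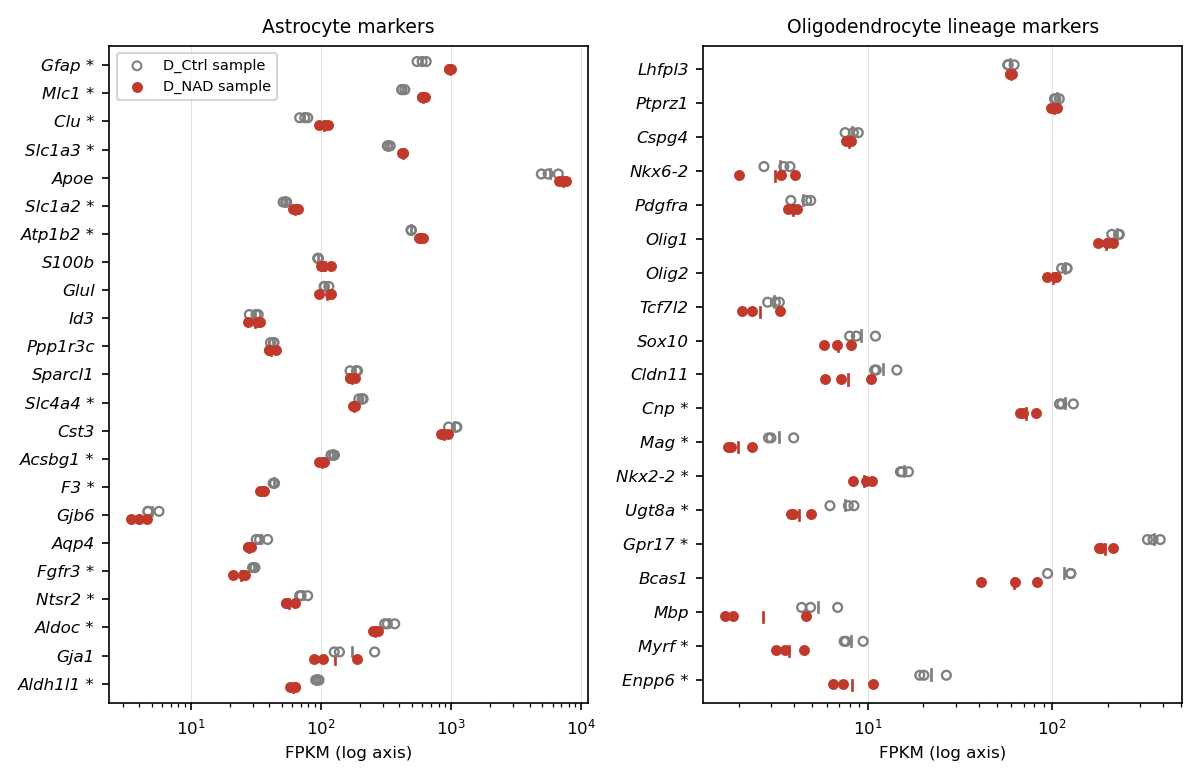
FPKM on log axes of tested astrocyte markers (left) and oligodendrocyte lineage markers (right), ordered by log2 fold change, in the 3 D_Ctrl samples (open circles) and the 3 D_NAD samples (filled circles), with group means as vertical ticks and an asterisk for an adjusted p under 0.05. Gfap, Mlc1 and Clu lie higher and Aldh1l1 lower in the NAD+ samples, and Gpr17, Myrf and Enpp6 lie lower without overlap.

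The NAD+ synthesis list also holds NAD+ kinases, a mitochondrial carrier and Aox1, and 1 of its 10 tested genes was called. This was Nmnat2, the cytosolic adenylyltransferase of axons, which stood at 11.2, 10.6 and 11.6 in Ctrl and 15.8, 17.4 and 18.2 in NAD+. Its log2 fold change was 0.62 ± 0.07. Nampt, the rate-limiting enzyme of the salvage path, was at 5.52, 6.04 and 5.14 in Ctrl and 4.59, 5.45 and 4.9 in NAD+ (adjusted p = 0.316), and its groups overlapped. The others were Nmnat1 (-0.13), Nmrk1 (-0.27), Naprt (-0.25), Nadsyn1 (0.33), the NAD+ kinases Nadk (-0.40) and Nadk2 (0.12), the mitochondrial NAD+ carrier Slc25a51 (0.29) and Aox1 (0.57), which was called after median-ratio scaling only. The NAD+ consumption list also holds extracellular nucleotide enzymes, nucleoside transporters and genes such as Enpp2 and Adk, so not every member uses NAD+. Of its 28 tested genes, 6 fell and none rose, and 3 of the falls held under both scalings. Of the 6 falls, 2 stayed called without Ctrl replicate 2 or 3 and 3 without NAD+ replicate 1 or 3. Sirt2, a cytosolic deacetylase that oligodendrocytes express strongly, had FPKM values of 70.0, 69.2 and 85.2 in Ctrl and 35.6, 45.5 and 36.5 in NAD+, lower in every NAD+ sample (-0.93 ± 0.12, adjusted p = 0.00857). Enpp2, which encodes autotaxin, fell from 13.5 ± 0.125 to 7.21 ± 0.614 FPKM. Adk, which phosphorylates adenosine, fell from 3.33 ± 0.217 to 2.13 ± 0.218, with adjusted p = 0.0655 without Ctrl replicate 2.

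The falls of Alpl (-0.74, adjusted p = 0.0424), Entpd2 (-0.61, adjusted p = 0.0381) and Parp1 (-0.28, adjusted p = 0.0385) were called on the deposited values only, with adjusted p = 0.122 without Ctrl replicate 2, 0.11 without NAD+ replicate 3 and 0.106 without Ctrl replicate 3. The other 5 sirtuins ranged from -0.39 (Sirt6) to 0.26 (Sirt7), with Sirt1 at -0.10, Sirt3 at -0.18 and Sirt4 at -0.08, and none was called. The other 12 genes listed with the poly(ADP-ribose) polymerases were Parp2, Parp3, Parp4, Parp6, Parp8, Parp9, Parp11, Parp12, Tiparp, Tnks, Tnks2 and Parg. They ranged from -0.31 (Parp3) to 0.26 (Parg) without a call. Cd38, the main NAD+ hydrolase, was low at 0.94, 1.14 and 1.65 in Ctrl and 1.62, 1.48 and 2.35 in NAD+. Its log2 fold change of 0.52 did not pass (adjusted p = 0.231), nor did Sarm1 (0.01), Nudt12 (-0.01) or the nucleoside transporters Slc29a1 (-0.22) and Slc29a2 (-0.38). Of 6 purinergic receptors tested, the adenosine receptor Adora2b fell from 7.63 ± 0.613 to 4.59 ± 0.569 FPKM, with adjusted p = 0.0505 without Ctrl replicate 1, and Adora1 (-0.25, adjusted p = 0.172) and P2rx7 (0.21, adjusted p = 0.616) did not pass.

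All 6 samples received forskolin, which raises cAMP. Of 19 tested factors and targets of the cAMP-response element-binding protein CREB, 5 rose and none fell. Egr1, an immediate early gene, stood at 4.48, 5.13 and 6.22 in Ctrl and 9.39, 11.5 and 11.9 in NAD+, and the nuclear receptor gene Nr4a3 at 0.85, 0.87 and 1.3 in Ctrl and 3.11, 2.79 and 2.49 in NAD+. Both were higher in every NAD+ sample, as was Junb. Fos rose from 11.5 ± 0.56 to 18.6 ± 1.12 FPKM, and Fosl2 (0.79, adjusted p = 0.0186) had adjusted p = 0.0688 without NAD+ replicate 3. The letters of the cAMP-response element, TGACGTCA, were in none of the 14 promoters of these genes in the table and in 1.77% of all promoters. Of the 22 cyclases, phosphodiesterases and kinase subunits, Adcy8, a calcium-stimulated cyclase, fell from 7.61 ± 0.682 to 3.08 ± 0.2 FPKM, the phosphodiesterase Pde7b rose from 1.96 ± 0.172 to 3.43 ± 0.327, and Prkacb (-0.31, adjusted p = 0.0306) was called on the deposited values only, with adjusted p = 0.0955 without Ctrl replicate 2.

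Neuroendocrine granule genes included 3 rises among 5 processing genes. The granule membrane proteins Ptprn and Ptprn2 stood at 9.32, 9.69 and 9.35 in Ctrl and 18.8, 19.1 and 18.6 in NAD+ and at 4.86, 4.91 and 5.91 in Ctrl and 9.33, 9.67 and 10.1 in NAD+. Their groups did not overlap, and their log2 fold changes were 0.99 ± 0.05 and 0.88 ± 0.09. Cpe (0.23, adjusted p = 0.0238) had adjusted p = 0.104 without Ctrl replicate 1. None of the 6 peptide genes was called, with Igfbp5 at 325 (Ctrl mean) and 288 (NAD+ mean) FPKM. In the retinoic acid pathway, 3 of 15 genes rose, 1 of them also without Ctrl replicate 1 or 3 or NAD+ replicate 2 or 3. These were Rdh10, a retinol dehydrogenase, from 5.73 ± 0.226 to 7.87 ± 0.189 FPKM, Aldh1a1 (0.36, adjusted p = 0.0356) and Rarres1 (0.58, adjusted p = 0.0297), which had adjusted p = 0.111 without Ctrl replicate 1 and 0.0888 without Ctrl replicate 1. None of the 5 receptors was called, with Rxra at -0.25 and Rxrb at 0.00.

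In glycolysis, 2 of 21 genes rose and 2 fell. Hk1, the first enzyme of the path, had FPKM values of 17.7, 21.8 and 20.5 in Ctrl and 13.2, 13.5 and 12.5 in NAD+, and the lactate transporter Slc16a1 of 46.9, 47.3 and 41.7 in Ctrl and 72.9, 70.1 and 62.5 in NAD+. The former lay lower and the latter higher in every NAD+ sample. Txnip, an inhibitor of glucose uptake, was at 45.3 (Ctrl mean) and 91.3 (NAD+ mean) FPKM (0.98, adjusted p = 0.0265), with adjusted p = 0.0917 without Ctrl replicate 1, and Aldoc (-0.35, adjusted p = 0.0333) was called on the deposited values only, with adjusted p = 0.0903 without NAD+ replicate 3. Of 48 nuclear genes of the respiratory chain and ATP synthase, Ndufa1 rose (0.34) and Atp5g2 fell (-0.29, adjusted p = 0.0566 without Ctrl replicate 1), and the median was -0.09, near that of all genes. None of 15 hypoxia genes was called, with Ldha at 30.9 (Ctrl mean) and 25.2 (NAD+ mean) FPKM (adjusted p = 0.493).

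Of the 13 protein-coding genes of mitochondrial DNA, 6 rose and none fell, with a median of 0.24. mt-Nd6 had FPKM values of 5587, 5469 and 5443 in Ctrl and 7099, 6412 and 6828 in NAD+, a log2 fold change of 0.30 ± 0.05. mt-Nd6 had adjusted p = 0.0697 without Ctrl replicate 1, and none of the 6 was called in any fit that left out 1 sample other than NAD+ replicate 2. mt-Atp6 stood at 6364, 6495 and 1375 in Ctrl and 5930.5, 1322 and 1416 in NAD+, in 2 separate ranges within both groups. Mitochondrial transcripts took 28.9% to 29.8% of the FPKM sum in the Ctrl samples and 29.5% to 33.2% in the NAD+ samples. Of 55 cytosolic ribosomal protein genes, 7 fell, 52 had a negative log2 fold change and the median was -0.17 (-0.09 after median-ratio scaling). None of the 7 was called after median-ratio scaling, and none stayed without Ctrl replicate 1 or 2 or NAD+ replicate 1 or 3. Rpl24, with a log2 fold change of -0.27, shows the size.

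Antioxidant genes under the factor NRF2 included 9 rises and 2 falls among 32. Gpx1, a glutathione peroxidase, had FPKM values of 32.4, 30.5 and 25.7 in Ctrl and 50.7, 48.1 and 46.8 in NAD+, and Slc7a11, the cystine transporter, of 15.4, 17.3 and 20.6 in Ctrl and 31.6, 33.7 and 37.5 in NAD+. Gpx3 rose from 5.95 ± 0.622 to 12.3 ± 2.14 FPKM and the sulfiredoxin gene Srxn1 from 8.72 ± 1.35 to 16.1 ± 1.63 (SD, n = 3). No NAD+ sample of these 4 reached down to the Ctrl range. Gsta4 (-0.62, adjusted p = 0.0238) and Tkt (-0.27, adjusted p = 0.0251) were called lower, Tkt on the deposited values only, with adjusted p = 0.082 without Ctrl replicate 1 and 0.0856 without Ctrl replicate 2. Of the 9 rises, 4 stayed called without Ctrl replicate 1 or 3 and 5 without any other 1 sample.

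Of 17 endoplasmic reticulum chaperones and stress sensors, 1 fell, on the deposited values only. Of 18 genes of ATF4 and CHOP, the factors of the integrated stress response, 4 fell and 2 rose. Without Ctrl replicate 1, 2 or 3 or NAD+ replicate 1, 2 of these 4 falls stayed called. Atf4, the central factor, had FPKM values of 25.9, 25.6 and 23.2 in Ctrl and 17.6, 17.3 and 16.7 in NAD+, and Phgdh, the first enzyme of serine synthesis, of 90.3, 90.1 and 101 in Ctrl and 51.8, 53.2 and 46 in NAD+. Both were lower in every NAD+ sample (-0.53 ± 0.06 and -0.90 ± 0.08). Ddit4, an inhibitor of mTORC1, fell from 52.1 ± 4.75 to 29.8 ± 6.03 FPKM, with adjusted p = 0.0816 without Ctrl replicate 1, and Mthfd2 (-0.75, adjusted p = 0.0283) had adjusted p = 0.0845 without Ctrl replicate 2. Slc7a11 and its partner Slc3a2 (0.35, adjusted p = 0.0254), with adjusted p = 0.0905 without Ctrl replicate 1, went the other way. The endoplasmic reticulum chaperones Hsp90b1 (-0.06, adjusted p = 0.421) and Pdia4 (-0.03, adjusted p = 0.704) did not pass.

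Of 43 tested lysosomal genes, 14 were higher and 2 lower, with a median of 0.07 against -0.08 for all genes. After median-ratio scaling 1 of these 2 falls was called. Ctsb, the protease cathepsin B, had FPKM values of 184, 193 and 179 in Ctrl and 296, 304 and 294 in NAD+, and Ctsd, cathepsin D, of 375, 407 and 396 in Ctrl and 497, 528 and 547 in NAD+. The groups did not overlap for either. Hexa rose from 72.7 ± 4.08 to 94.9 ± 2.94 FPKM. The membrane proteins Lamp1 and Lamp2 had log2 fold changes of 0.24 and 0.34, with adjusted p = 0.071 without Ctrl replicate 1 and 0.0589 without Ctrl replicate 1. Tfeb, the transcription factor that drives lysosomal genes, was lower (-0.47, adjusted p = 0.0168), with adjusted p = 0.0636 without Ctrl replicate 1. Of the 14 rises, 4 stayed called without Ctrl replicate 2, 5 without Ctrl replicate 1, 6 without NAD+ replicate 3 and 8 without Ctrl replicate 3 or NAD+ replicate 1.

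Of 30 genes of the PI3K-Akt pathway, 2 rose and 2 fell, and none of its 13 kinases and lipid phosphatases was called, with Pik3r1 at 51.8 (Ctrl mean) and 46.6 (NAD+ mean) FPKM and Phlpp1 at 31.9 (Ctrl mean) and 27.8 (NAD+ mean). Sgk1, a kinase related to Akt, had FPKM values of 6.07, 5.78 and 6.58 in Ctrl and 3.03, 4.01 and 2.74 in NAD+, lower in every NAD+ sample, with adjusted p = 0.014 and 0.053 without Ctrl replicate 1. Ddit4 was the other fall. The insulin receptor substrates Irs1 and Irs2 rose, with log2 fold changes of 0.62 ± 0.10 and 0.34 ± 0.07, and reached adjusted p = 0.0542 without Ctrl replicate 1 and 0.0845 without Ctrl replicate 1. Of 19 receptor tyrosine kinases, Axl fell from 44 ± 1.81 to 32.8 ± 0.968 FPKM, Fgfr2 rose from 6.26 ± 0.151 to 8.46 ± 0.321, Met (0.92, adjusted p = 0.0365) had adjusted p = 0.108 without NAD+ replicate 3, and Fgfr3 was called lower on the deposited values only, with adjusted p = 0.142 without Ctrl replicate 1. Among 13 growth factors, Fgf1 stood at 9.55, 9.77 and 8.64 in Ctrl and 5.43, 5.81 and 4.85 in NAD+ and Vegfb at 21.2, 21 and 19 in Ctrl and 14.7, 15.1 and 13.5 in NAD+, both lower in every NAD+ sample. Angpt1 rose from 3.87 ± 0.606 to 6.44 ± 0.3 FPKM, with adjusted p = 0.0512 without Ctrl replicate 1, and Fgf2 (0.75, adjusted p = 0.0491) had adjusted p = 0.118 without NAD+ replicate 1.

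In the Notch pathway, 5 of 16 genes fell, 3 of them under both scalings, and 1 rose. Of the 5 falls, 2 stayed called without any 1 of Ctrl replicates 1, 2 and 3 or NAD+ replicate 3, and 3 without NAD+ replicate 2. The receptor Notch3 had FPKM values of 13.8, 14.6 and 14.4 in Ctrl and 9.3, 8.27 and 7.9 in NAD+, and Hes5 is given above. Mfng, a glycosyltransferase of Notch, was low at 1.63 (Ctrl mean) and 0.673 (NAD+ mean) FPKM, with adjusted p = 0.0822 without Ctrl replicate 2, and the ligand-like Dner rose from 57.2 ± 0.726 to 69.4 ± 1.09, with adjusted p = 0.0514 without Ctrl replicate 1. Of 21 WNT genes, 4 fell and 2 rose, and 2 of the 4 falls stayed called without any 1 sample other than NAD+ replicate 1. Wnt7a, a ligand, stood at 8.26, 8.51 and 7.75 in Ctrl and 4.85, 4.17 and 4.02 in NAD+, and the repressor Tcf7l1 fell from 6.76 ± 0.414 to 4.38 ± 0.0361 FPKM. The receptors Fzd1 and Fzd3 rose by 0.41 and 0.28 log2 units, with adjusted p = 0.0578 without Ctrl replicate 1 and 0.0712 without Ctrl replicate 1, and Wnt7b and Wnt5b were called lower on the deposited values only, with adjusted p = 0.131 without Ctrl replicate 1 and 0.119 without Ctrl replicate 1. In the BMP and TGF-beta list, 2 of 24 genes rose. Smad2, a signal carrier of TGF-beta, stood at 1.69, 1.82 and 1.52 in Ctrl and 4.03, 4.61 and 4.35 in NAD+, a log2 fold change of 1.32 ± 0.10, and Tgfbr3 (0.38, adjusted p = 0.0389) had adjusted p = 0.11 without Ctrl replicate 3. Gas1, a Hedgehog co-receptor, rose from 13.2 ± 0.516 to 16.9 ± 0.448 FPKM, and Sufu (-0.31, adjusted p = 0.0493) was called lower on the deposited values only, with adjusted p = 0.146 without Ctrl replicate 1.

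Of 28 mitosis genes, 1 passed the filter. Mki67 was at 0.64, 0.43 and 0.69 FPKM in Ctrl and 0.51, 0.5 and 0.35 in NAD+. Of 16 replication genes, Rfc3 was called (-0.38, adjusted p = 0.0492), on the deposited values only and with adjusted p = 0.129 without Ctrl replicate 3, and Pcna was at 18.1 (Ctrl mean) and 20.1 (NAD+ mean) FPKM (adjusted p = 0.138). The inhibitor Cdkn1c fell from 1.83 ± 0.306 to 0.92 ± 0.05 FPKM, with adjusted p = 0.0787 without Ctrl replicate 2, and Cdk4 (-0.32, adjusted p = 0.0232) on the deposited values only, with adjusted p = 0.0768 without Ctrl replicate 1. Of 26 apoptosis genes, 3 rose and 1 fell, and 1 of the 3 rises stayed called without Ctrl replicate 1 or 2. Mcl1, a survival protein of the BCL2 family, had FPKM values of 29.7, 29.9 and 28.8 in Ctrl and 42.9, 44.8 and 49.1 in NAD+, and Bcl2 (0.66, adjusted p = 0.0254) and the death receptor Fas (0.58, adjusted p = 0.0287) reached adjusted p = 0.083 without Ctrl replicate 1 and 0.0917 without Ctrl replicate 1.

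Of 21 potassium channel genes, 5 fell, 4 of them under both scalings, and none rose on the deposited values. After median-ratio scaling 1 was called higher, and the log2 fold changes on the deposited values ranged from -1.80 to 2.33. Beside Kcnj10, Kcnt1, a sodium-activated channel, had FPKM values of 5.16, 4.43 and 4.58 in Ctrl and 2.09, 2.32 and 2.13 in NAD+, and the channel-associated Kcnip1 of 2.58, 2.49 and 2.72 in Ctrl and 1.18, 1.49 and 1.1 in NAD+. Both fell in every NAD+ sample, and Kcnc1 fell from 4.51 ± 0.16 to 2.94 ± 0.112 FPKM. Of 17 glutamate and GABA receptor genes, 7 fell, 4 of them under both scalings, and 2 rose. Of the 7 falls, 3 stayed called without any 1 Ctrl sample and 4 without any 1 NAD+ sample. Gabbr2, a GABA-B subunit, stood at 36.2, 39.3 and 38 in Ctrl and 25.7, 27.4 and 22.9 in NAD+, Grin3a fell from 5.4 ± 0.337 to 3.3 ± 0.0436 FPKM and Grik3 fell from 8 ± 0.207 to 5.64 ± 0.0902. The AMPA receptor subunits went opposite ways, Gria1 up (0.40, adjusted p = 0.0638 without NAD+ replicate 3) and Gria2 down (-0.42, adjusted p = 0.0866 without Ctrl replicate 1).

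Of 12 tested genes of the sodium pump and sodium channels, 3 rose and 4 fell, 2 of the falls under both scalings. Of the 4 falls, 1 stayed called without Ctrl replicate 2 or 3 and 2 without Ctrl replicate 1 or NAD+ replicate 1 or 2. The beta subunit Atp1b3 rose from 32.1 ± 1.16 to 41.9 ± 1.14 FPKM. Fxyd7, a regulator of the pump, was at 4.55, 4.62 and 3.72 in Ctrl and 0.82, 1.74 and 1.97 in NAD+, with adjusted p = 0.0905 without Ctrl replicate 1. Cacng5, a calcium channel family member, rose from 14.8 ± 1.14 to 26.8 ± 2.54, and Cacna1h (-0.50, adjusted p = 0.0289) had adjusted p = 0.0882 without NAD+ replicate 3. Of 24 presynaptic and axon growth genes, 5 fell, 3 of them under both scalings, and 1 rose. Without Ctrl replicate 1 or 3 or NAD+ replicate 1 or 3, 3 of the 5 falls stayed called. The vesicle protein gene Sv2a stood at 7.98, 8.45 and 7.27 in Ctrl and 4.59, 4.64 and 4.88 in NAD+, the guidance receptor Robo1 fell from 7.07 ± 0.0755 to 5.06 ± 0.171 FPKM and the guidance cue Ntn1 fell from 47.1 ± 1.81 to 34.4 ± 2.47.

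Of 68 extracellular matrix genes, 14 were higher and 12 lower, 10 of the falls under both scalings, with a median of 0.02. Of the 12 falls, 6 stayed called without Ctrl replicate 1, 7 without replicate 2 and 7 without replicate 3. Among proteoglycans and glycoproteins, Vcan, which encodes versican, had FPKM values of 18.2, 19.6 and 19.5 in Ctrl and 10.2, 10.8 and 9.57 in NAD+, and Tnr, tenascin R, of 80.8, 91.7 and 82.1 in Ctrl and 43.5, 52.4 and 41.3 in NAD+. Both fell in every NAD+ sample. Prelp is given above, Ecm1 rose from 11.8 ± 1.1 to 19.8 ± 1.1 FPKM and Ncan, neurocan, rose from 116 ± 1.91 to 143 ± 2.21. Tnc, tenascin C, was low at 1.78, 1.88 and 1.49 in Ctrl and 0.48, 0.74 and 0.34 in NAD+, with adjusted p = 0.0697 without Ctrl replicate 2. Of 5 collagen rises, 3 stayed called without Ctrl replicate 1. Among collagens, Col9a1 fell from 8.86 ± 1.3 to 4.05 ± 0.406 FPKM and Col11a2 fell from 6.59 ± 0.857 to 3.49 ± 0.225, while Col5a2 rose from 5.28 ± 0.0814 to 7.68 ± 0.686 and Col23a1 rose from 2.59 ± 0.02 to 3.99 ± 0.0872. Col6a1 rose from 19.6 ± 1.96 to 31.3 ± 3.63, with adjusted p = 0.0558 without Ctrl replicate 1. The protease inhibitor Timp2 stood at 39.7, 36.6 and 40.6 in Ctrl and 61.8, 60.4 and 66.1 in NAD+, and the integrin gene Itgb4 rose from 2.52 ± 0.148 to 4.48 ± 0.488. Fbln1, fibulin 1, fell from 4.38 ± 0.521 to 2.4 ± 0.128 FPKM.

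The response was compared with that under proliferating conditions by the difference of the log2 fold changes, tested in 1 fit over the 12 samples. That difference was called for 98 of 12928 genes (0.758%). With 1 of the 12 samples left out, the count was between 29 and 308. Whether the difference of a single gene stayed called in those fits is not given. NAD+ under proliferating conditions changed 75 of 12626 genes. In limma, 2265 genes had an unadjusted p under 0.05 there, against 3841 under differentiation. Counts of calls depend on the spread within groups, so 75 beside 1589 does not measure how far the responses differ. The count of 75 was not refitted without single samples. Of the 11648 genes tested under each condition alone, the difference was called for 90. Lcn2, C3, Cxcl10 and Tlr2 are not compared in this way, since their mean FPKM in the proliferating samples was under 1 and they entered the fit through the differentiation samples. Lcn2 stood at 0.08, 0 and 0.05 FPKM in the proliferating Ctrl samples and 0, 0.03 and 0.04 in the NAD+ samples, C3 at 0.37, 0.09 and 0.06 and 0.03, 0.07 and 0.15, and Cxcl10 at 0.28, 0.19 and 0.14 and 0.19, 0.27 and 0.26. These 3 genes were near 0 in every proliferating sample. H2-D1 differed by 0.90 ± 0.12 (adjusted p = 0.012) and Gbp3 by 1.56 ± 0.29 (adjusted p = 0.042), with 0.87, 1.54 and 1.63 FPKM of Gbp3 in the proliferating Ctrl samples and 0.89, 0.92 and 1.16 in the NAD+ samples. Gabbr2 fell under differentiation and had a log2 fold change of 0.26 under proliferating conditions, a difference of -0.84 ± 0.11 (adjusted p = 0.0119).

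For the cholesterol synthesis enzymes no member's difference was called. Their median log2 fold change was -0.76 under differentiation and -0.58 under proliferating conditions, where that of the 11648 genes tested under both conditions was 0.08. Hmgcs1 had -0.83 and -0.73, a difference of -0.10 ± 0.19. Of the 20 oligodendrocyte lineage genes, 16 were tested under both conditions, without Enpp6, Mbp, Mag and Myrf, which had a mean FPKM under 1 in the proliferating samples. The median of the 16 was -0.35 under differentiation and -0.42 under proliferating conditions, and 1 difference was called, that of Lhfpl3 (0.02 and -0.57). Missing the threshold does not show that the effects were alike.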

How the data were processed

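RNA of 12 aNSPC cultures was sequenced, and the deposited tables give FPKM values per gene and sample. The authors aligned the sequences with Hisat2 v2.0.5 (mouse genome mm10), kept unique reads and counted them with FeatureCounts v2.0.1. The program that made the FPKM values is not given in the sources used here. All values were multiples of 0.01, read numbers are not given, and so no count test was run. The authors' fold change, p-value, q-value, regulation and significance columns were not used.

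FPKM values of the 3 D_Ctrl and 3 D_NAD samples were tested as log2(FPKM + 0.1) with limma 3.58.1 (R 4.3.3, variance trend, Benjamini-Hochberg adjustment over the genes tested). Genes needed a mean FPKM of 1. The alternatives were other pseudocounts, filters and scalings, no variance trend, a replicate block and leaving out each sample. On simulated data for this comparison over 12671 genes, log2 changes of 0.5, 1 and 2 were recovered for 33.3%, 74.6% and 89.6% of changed genes, with 0.0722% of unchanged genes called. The simulation left 12471 genes unchanged and drew independent noise for each value, with no effect shared by the genes of a sample. The real data gave 1589 calls, so these rates are not those of the real comparison.

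The comparison and the 48 gene lists were chosen with earlier results of these data known. Genes named were the 12 largest rises and 12 largest falls with a mean FPKM of 10 or more that were called under both scalings without overlap and do not appear in the study's text, up to 4 called members per list role and direction, the 2 most abundant members where fewer than 2 were called, every tested gene of NAD+ synthesis, NAD+ consumption and the C/EBP family, and all genes of a count of 5 or fewer. Other list members given with values, such as Hmgcs1, Sqle, Acly, Fasn, Fads1, Ifitm3, Isg15, Mbp, Gja1, Apoe, Scd2, mt-Atp6, Lhfpl3 and the genes under the filter, and Neat1, were chosen after their values were seen. Some genes that the rule names are not reported here, in the text or in the figures. Gene positions are GENCODE M21 (GRCm38), and promoters are RefSeq's (GRCm38.p6). The NF-kB and other motifs were chosen after expression values were seen.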

Additional observations from a re-analysis of the deposited data

Results flagged for a closer look

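In 24 of the genes named in the report, the log2 fold change by NAD+ under differentiation conditions differed from that under proliferating conditions in the limma fit over the 12 samples (adjusted p under 0.05). Values are differences in log2 fold change, differentiation minus proliferating. The number of genes called for this difference depended strongly on single samples, from 29 to 308 with 1 left out. Which of the 24 stayed called is not given.

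Of these, 20 were tested under both conditions. For the other 4 the difference was 3.008 for Lcn2, 2.792 for C3, 1.621 for Cxcl10 and 1.576 for Tlr2, but their mean FPKM in the proliferating samples was under 1. They entered the fit through the differentiation samples, and the 0.1 added before log2 holds their proliferating fold change near 0, so these 4 values are no test of the NAD+ effect between conditions.

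For immune genes tested under both conditions the difference was 1.564 for Gbp3, 1.303 for H2-Q4, 1.3 for Cp and 0.8975 for H2-D1. For signalling and growth factor genes it was 1.445 for Smad2, 1.377 for Angpt1, 1.022 for Dner, -1.018 for Fgf1 and -0.9889 for Sgk1.

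For matrix and secreted protein genes the difference was 1.024 for Ecrg4, 0.8903 for the protease Adamts1, -0.8858 for Fbln1 and -2.051 for Tnc. For transport, receptor and channel genes it was 1.088 for Slc7a11, 0.6169 for Atp1b2, -0.7967 for Kcnc1, -0.8414 for Gabbr2 and -1.045 for Cd36. Sox9, a glial and stem cell factor, differed by 0.4618 and Septin5 by -0.7921.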

How the results depend on the processing

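The 1589 genes called (514 higher, 1075 lower) became 977 (330 and 647) with no filter on low values, where more genes were tested. Lower calls became 673 after median-ratio scaling and 693 after quantile normalization, and higher calls made up 51.8% and 49.5% of all calls instead of 32.3%. A rule of a fold over 2 with an unadjusted p under 0.05 gave 224 genes (87 and 137). Leaving out 1 sample gave 593 to 1103 genes (231 to 345 higher, 362 to 770 lower), with the fewest without D_Ctrl replicate 1. Leaving out 1 sample with median-ratio scaling, chosen after seeing the data, gave 579, 659 and 663 genes without D_Ctrl replicates 1, 2 and 3 (315 higher in the first, and 264, 304 and 292 lower) and 881, 862 and 698 without D_NAD replicates 1, 2 and 3 (432, 432 and 353 lower). Of the 218 named genes that were called, 117 stayed called in all 6 leave-one-out fits, and all 218 kept their direction in them. The difference from proliferating conditions, 98 genes, became 189 with 1 added before log2 and 29 to 308 with 1 sample left out, lowest without P_NAD replicate 3 and highest without P_Ctrl replicate 1. The other pseudocounts and filters, division by the FPKM sum and no variance trend left the total of calls within 1.5 times, from 1318 to 1818. The 1818 came from division by the FPKM sum, with 354 higher and 1464 lower. The causes of these changes were not tested.

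Deviations of samples with the same replicate number correlated by 0.043, 0.089 and 0.008, so the numbers were not taken to pair the samples. A replicate block in the fit gave 1232 genes (407 higher, 825 lower), of which 1070 were among the 1589 in the same direction, and the block with median-ratio scaling gave 1049 (556 and 493). The block gave 79 genes for the difference. Depth is unknown, so the precision of low FPKM values cannot be stated.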
